A study of Mus musculus with 20 samples.

Results

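Hjurp, the chaperone that loads the centromeric histone CENP-A, was set beside 5 genes of the same loading and reading machinery in mouse melanomas with and without p38α. The 6 genes are Hjurp, Cenpa, Mis18a, Oip5, Cenpc1 and Cenpn, out of 19504 named genes on the array. Hjurp was singled out for its difference between the genotypes in complete tumors, and the other 5 were chosen for what their products do. Each of the 6 symbols had 1 row in the table, so no choice between rows was needed.

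The tumors came from 2 mouse lines. The line named B had the genotype Tyr::CreERT2;BrafCA/CA, and the line named B;p38α carried these alleles together with p38αlox/lox. In both lines 4-hydroxytamoxifen (5 mg/ml) was put on the skin on postnatal days 2.5 and 3.5, which switched on BRAF V600E in melanocytes, and in the second line also deleted p38α there. On the later of these days the pups of both lines were also exposed once to UVB (6.24 kJ/m2), and their tumors were collected at endpoint. RNA was measured on 20 arrays in 6 groups: complete tumors (5 B and 3 B;p38α), CD45+ immune cells (3 and 3) and CD45- tumor and stroma cells (3 and 3). The Cre recombinase is driven by the tyrosinase promoter, so leukocytes and stroma are not its intended target, and every B sample carries the BRAF mutation too. The sorted cells were dissociated and pulled with magnetic beads, which the complete tumors were not. Samples are labelled as biological replicates but are not tied to animals, so the p-values rest on a sample-to-sample spread whose technical share is unknown.

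Centromeres are marked by nucleosomes in which CENP-A replaces histone H3. After each round of mitosis the Mis18 complex, which contains the proteins encoded by Mis18a and Oip5, licenses the centromere, HJURP then brings new CENP-A to it, and CENP-C and CENP-N bind the finished nucleosome as part of the constitutive centromere network. Most of these genes are known for transcription that peaks late in the cell cycle, when dividing cells prepare for mitosis. High HJURP and CENP-A levels are a common feature of proliferating tumors.

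A short promoter element, the cell cycle genes homology region, is known to time many late cell cycle genes, and it is shown here because it is a sequence feature that the choice of members did not use. It was searched as TTTGAA or TTCGAA on both strands of the RefSeq promoters of build GRCm38.p6, each running from 250 bases before to 50 bases after the gene's start. All 6 members had a promoter in that set. The 5 matches are printed below from 5′ to 3′ on the gene's strand, 30 bases each, with the matching letters in capitals (TTCAAA is TTTGAA read on the other strand).
Hjurp: tgcgtaaatactTTTGAAagaccctattag
Cenpa: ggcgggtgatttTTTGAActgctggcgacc
Mis18a: ctcatttaaTTCGAAgccttcaactttctc
Oip5: aagaggcgcgcgcTTCAAAgaaatatggcg
Cenpn: gccattggcggcTTCAAAagcacctcggcg

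The Hjurp window is chr1:88277543-88277572 on the minus strand and the Cenpa window chr5:30666890-30666919 on the plus strand. The Mis18a window is chr16:90727592-90727621 (minus), the Oip5 window chr2:119618456-119618485 (minus) and the Cenpn window chr8:116921719-116921748 (plus). In Hjurp and Cenpa the capitals begin 20 and 17 bases from the start of the gene, in the same orientation. In Oip5 and Cenpn they lie at 34 and -9 on the other strand, and in Mis18a they lie far upstream, at -241. The Cenpc1 window held no match. For scale, 19.2% of all 32851 RefSeq promoters of this length held a match to these letters. CCAAT, searched on both strands, was found in 5 of the 6 members (all but Mis18a) and in 37.4% of all promoters, and the E2F motif GCGGGAA in 2 members, Cenpc1 and Cenpn, and in 4.6% of all promoters. A match says only that the letters are there, and 4 of the 5 genes with a match overlapped between the genotypes in every compartment.

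Hjurp was higher in the B;p38α line in every compartment, by about the same amount. All levels are log2 values normalized by the submitters with RMA, so a difference of 1 is a doubling. In complete tumors the 5 B samples measured 8.64, 8.58, 8.59, 8.27 and 9.39, and the 3 B;p38α samples measured 10.26, 10.42 and 10.12. Replicate 5 of the B line was the highest of its group, and it still lay below the lowest deleted tumor. The group means were 8.69 ± 0.42 (SD, n = 5) and 10.27 ± 0.15 (SD, n = 3), a difference of 1.57 (SE 0.24), or 2.98-fold. This contrast led to the choice of the gene, so it stands as a description without a test.

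In CD45+ cells Hjurp measured 8.11, 8.52 and 8.80 in B and 10.43, 10.30 and 9.35 in B;p38α. Replicate 3 of the deleted line was lower than the other two, and the groups did not overlap. The difference was 1.55 (SE 0.32), or 2.94-fold. The deletion is aimed at melanocytes, and these are leukocyte-enriched cells, so their purity matters for this value. The 6 leukocyte markers averaged 11.11 and 10.78 in the CD45+ groups of the B and the deleted line. The 5 measured fibroblast markers were also high there, at 12.15 and 12.22, against 12.82 and 12.56 in CD45- cells. The mean of the 4 endothelial markers ran from 10.350 to 10.48 in B and from 9.02 to 10.346 in the deleted line there, lower in the deleted line without overlap. Fibroblast and endothelial transcripts were thus measured in the CD45+ fractions too, and the part of other cells in the Hjurp difference was not tested.

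In CD45- cells Hjurp measured 7.77, 8.73 and 9.15 in B and 10.49, 9.90 and 9.72 in B;p38α, again without overlap. The difference was 1.49 (SE 0.40), or 2.80-fold. The lowest B value belonged to replicate 1, an array that stood apart from the other 19 by its narrow range of values. Without that array the difference was 1.10 (SE 0.29). Leukocyte markers were lower in the B;p38α CD45- cells, where the mean of the 6 genes ran from 6.11 to 8.30. In the B CD45- cells that mean ran from 8.82 to 9.18. The part of leukocytes in the Hjurp difference was not tested. In bulk RNA, fewer cells of a type and less RNA per cell cannot be told apart.

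**Figure D1:**
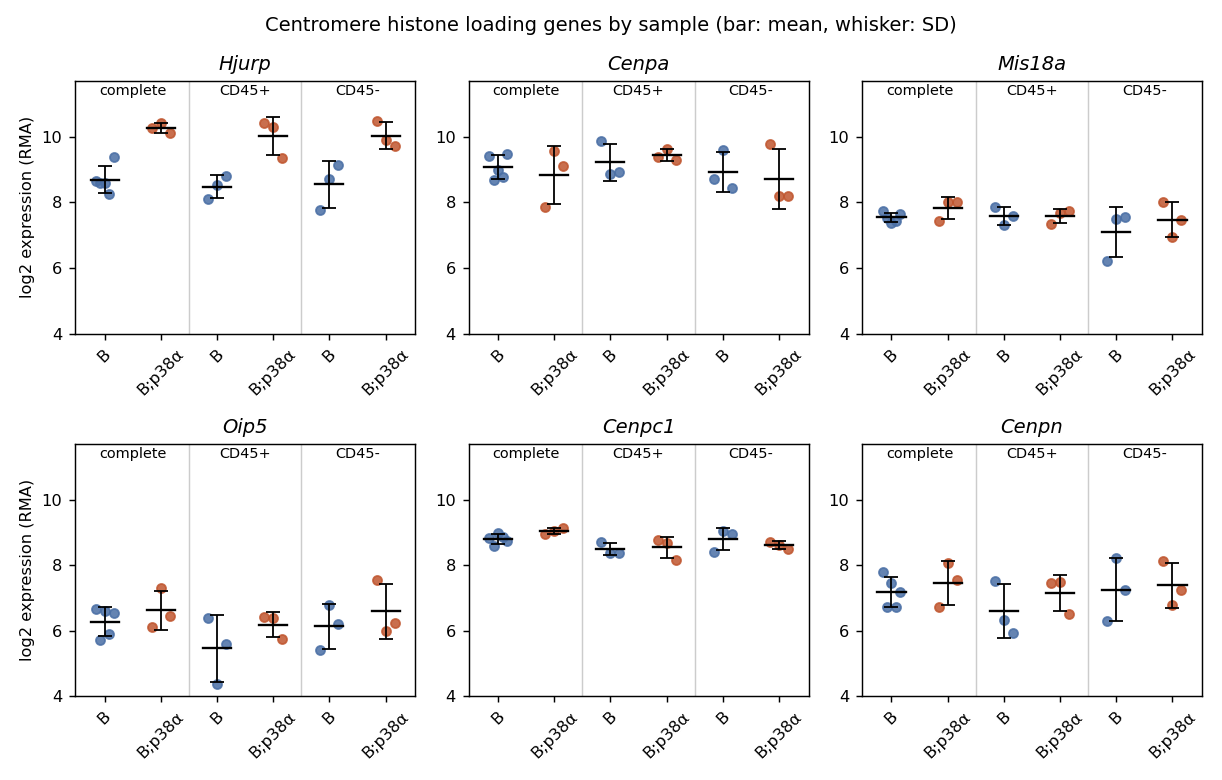
Log2 expression of the 6 genes (vertical axis, RMA values) in each of the 20 samples, by compartment and genotype, with B in blue and B;p38α in orange; bars are group means and whiskers SDs. In Hjurp the orange points lie above the blue points of the same compartment in all 3 compartments, while in the other 5 genes the colors overlap.

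Within single compartments Hjurp did not pass a test adjusted over all genes, and hardly any gene did. In limma, where a Benjamini-Hochberg adjusted p under 0.05 was called, 0% of the 19504 genes passed in complete tumors and 0% in CD45+ cells, and 0.0103% (2 genes) passed in CD45- cells. At an unadjusted p under 0.05 the numbers were 1289, 2101 and 1319 genes. Of the 6 members 0 passed in CD45+ and 0 in CD45- cells, and Hjurp was the 1 member with an unadjusted p under 0.05 in each. Its adjusted p was 0.395 in CD45+ and 0.675 in CD45- cells.

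The 12 sorted samples did not enter the contrast that singled out Hjurp, and they were also fitted together, with the genotype difference averaged over both populations. Hjurp was 1.52 higher in the deleted line (SE 0.27, 95% interval 0.92 to 2.12), or 2.87-fold, with an adjusted p of 0.0608 in limma, which missed the threshold. In this fit 0.19% of all genes passed, 15 higher and 22 lower, and 0 of the 6 members did. Hjurp ranked high without passing: 26 of the 19504 genes had a larger positive difference and 52 had a smaller p. A two-sided exact permutation test of Hjurp alone exchanged genotype labels separately within each population. This permutation test gave p = 0.005 over 400 labelings, the smallest p they allow. Any gene whose groups do not overlap, in the same direction in both populations, must reach that p. In the higher direction 582 of all 19504 genes (2.98%) did not overlap. The permutation test and every fit of both populations treat the CD45+ and CD45- samples as independent. The labels do not say whether these come from the same tumors, and if they do, the p-values may be too small. The gene was picked from tumors of the same lines. Results from the sorted cells were known when it was, so the permutation p is not independent support.

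The call for Hjurp over the sorted cells turned on settings while its size did not. The difference stayed positive in all 21 alternatives, between 1.33 and 1.69, and its adjusted p in limma ran from 0.00707 to 0.220, below the threshold in 6 of them. It passed without replicate 3 of the B;p38α CD45+ group (1.69, adjusted p = 0.0391 in limma) and without replicate 3 of the B CD45- group (1.67, adjusted p = 0.0492 in limma). With the level of 3 Y-linked genes as a covariate the difference was 1.36 (adjusted p = 0.139 in limma). Those genes ran from 2.75 to 3.23 in the B;p38α CD45+ samples and from 4.30 to 8.67 in the B ones. In complete tumors they ran from 2.99 to 3.85 in the deleted line and from 2.76 to 9.29 in B. The high values in these compartments thus all belonged to the B line. In CD45- cells both lines held high values, from 3.30 to 8.81 in the deleted line and from 2.79 to 8.60 in B. The part of the Y-linked level in the Hjurp difference was not tested beyond that covariate.

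Whether Hjurp differed between the genotypes by another amount in CD45+ than in CD45- cells was tested as an interaction. The 2 differences were 0.07 apart (SE 0.55, 95% interval -1.14 to 1.27), with an adjusted p of 1.00 in limma. No gene passed this test (0%), with 380 genes at an unadjusted p under 0.05. The interval is wide enough to hold a difference as large as 1, so the data do not show the responses to be equal.

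Ordered by level, the 6 groups of Hjurp split by genotype and not by compartment. The 3 B;p38α groups stood at 10.27 (complete), 10.04 (CD45-) and 10.03 (CD45+), and the 3 B groups at 8.69 (complete), 8.55 (CD45-) and 8.47 (CD45+). The largest step between neighbours in that order, 1.33, lay between the genotypes. Even there the ranges touched, since the lowest B;p38α value (9.35, CD45+) was just under the highest B value (9.39, complete). Other neighbours overlapped as well. Of the 9 B;p38α samples 8 lay above every B sample, and of the 11 B samples 10 lay below every B;p38α sample.

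Groups that did not overlap were common in a single compartment and rare in all 3. In complete tumors 1.92% of all genes had every B;p38α sample above every B sample, in CD45+ cells 9.16% and in CD45- cells 10.6%. In both sorted populations at once it was 2.98% of genes, and in all 3 compartments 0.0461%, which is 9 genes with Hjurp among them. The complete tumors are part of that last count and led to the choice of Hjurp, so the count is given as a description. The other 5 members overlapped between the genotypes in every compartment.

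**Figure D2:**
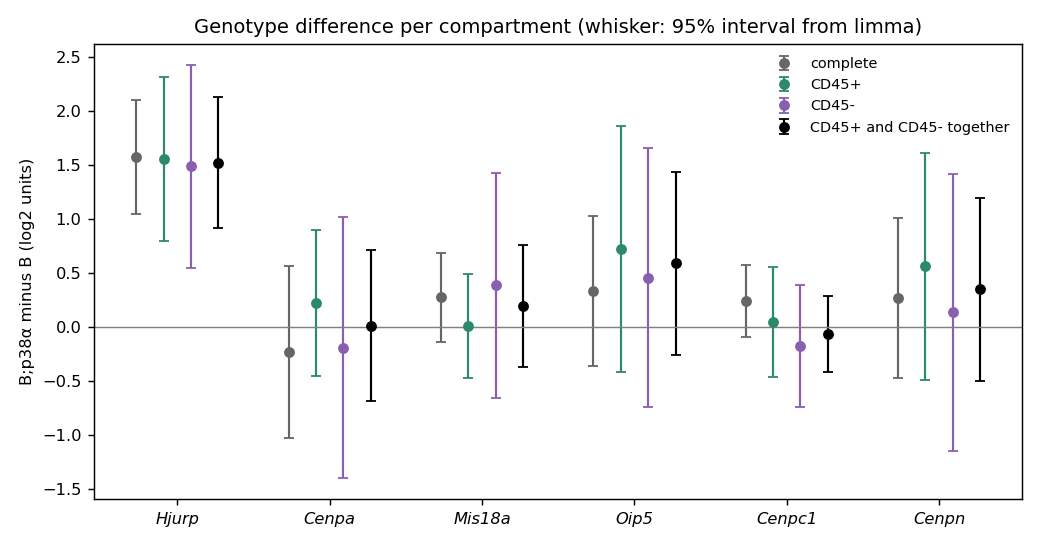
Genotype difference of each gene (B;p38α minus B, log2 units, vertical axis) in complete tumors, CD45+ cells, CD45- cells and both sorted populations together; points are limma estimates and whiskers their 95% intervals. Hjurp lies near 1.5 in all 4 fits, and the intervals of the other 5 genes include 0. The complete tumors led to the choice of Hjurp, so its whisker there is a description and not a test.

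Cenpa encodes the histone that HJURP carries, and its level did not follow that of its loader. In complete tumors it measured 9.42, 8.70, 8.99, 8.77 and 9.48 in B and 7.86, 9.56 and 9.11 in B;p38α. The lowest value of all 8 was a deleted tumor, replicate 1, in which Hjurp stood at 10.26. The difference was -0.23 (SE 0.36), and without that array it turned to 0.26. In CD45+ cells Cenpa measured 9.86, 8.87 and 8.93 in B and 9.38, 9.64 and 9.29 in B;p38α. In CD45- cells it measured 8.71, 9.61 and 8.44 in B and 9.77, 8.20 and 8.20 in B;p38α. The B;p38α CD45- samples thus held both the highest and the lowest values of the 6. Over the sorted populations the difference was 0.01 (SE 0.32, 95% interval -0.68 to 0.71, adjusted p = 0.988 in limma). Its sign changed when single arrays were left out, as it does for a value so near 0.

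The licensing factors Mis18a and Oip5, which act before HJURP arrives, overlapped between the genotypes too. Mis18a measured 7.73, 7.52, 7.39, 7.44 and 7.66 in complete B tumors and 7.43, 8.02 and 8.01 in the deleted ones. Of these 3 deleted tumors 2 lay above every B tumor and the remaining one lay near the bottom, the same replicate 1 in which Cenpa was low. In CD45+ cells it ran from 7.32 to 7.86 in B and from 7.34 to 7.75 in B;p38α. In CD45- cells it ran from 6.22 to 7.56 in B, with the lowest value in the array that stood apart, and from 6.96 to 8.01 in B;p38α. Over the sorted cells the difference was 0.20 (SE 0.26, adjusted p = 0.684 in limma), and without that array it was -0.02.

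Oip5, which encodes Mis18β, had the largest differences after Hjurp and also a wide spread. In CD45+ cells it measured 6.40, 4.39 and 5.60 in B and 6.41, 6.40 and 5.74 in B;p38α. The difference there, 0.72 (SE 0.48), rested on the low replicate 2 of the B line, and without that array it was 0.18. Complete tumors ran from 5.72 to 6.68 in B and from 6.13 to 7.29 in B;p38α, and CD45- cells from 5.42 to 6.78 and from 5.98 to 7.56. The difference over the sorted populations was 0.59 (SE 0.39, 95% interval -0.26 to 1.43), with an adjusted p of 0.405 in limma.

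Cenpc1 and Cenpn encode the proteins that recognize the CENP-A nucleosome once it is in place. Cenpc1 varied least among the 6 genes, with group means within 0.54 of each other. Its 5 complete B tumors ran from 8.58 to 8.97 around a median of 8.82, and the 3 deleted ones measured 8.94, 9.03 and 9.12, a difference of 0.24 (SE 0.15). In the sorted cells the difference was 0.05 (SE 0.22) in CD45+ and -0.18 (SE 0.24) in CD45- cells. Cenpn ran from 6.73 to 7.78 in complete B tumors and measured 6.73, 8.06 and 7.54 in the deleted ones. Its difference over the sorted cells was 0.35 (SE 0.39, adjusted p = 0.625 in limma), with values from 5.94 to 8.23 in B and from 6.51 to 8.13 in B;p38α over both populations.

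Beyond the 6 genes, 7 lists of genes around the centromere and the cell cycle, 84 measured genes in all, were described by their counts and medians. No gene of any list passed a genotype comparison in limma. Over the sorted populations 12 of the 84 (14.3%) had an unadjusted p under 0.05, all of them higher in the deleted line, near the 11.1% of all genes that were higher at that p. The differences leaned upward there: 53.6% of all 19504 genes were above 0, with a median of 0.03. Hjurp was chosen with results from the sorted cells known, so its place above the list genes is a description. None of the 84 genes had a difference as large as that of Hjurp, and the largest was 0.92 in Cenph, a subunit of the constitutive centromere network.

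Of the 14 measured genes of that inner network, 13 were higher in the sorted cells of the deleted line, with a median difference of 0.24. Its leading genes were Cenph (0.92, SE 0.35) and Cenpi (0.64, SE 0.29). The 6 measured cofactors of CENP-A deposition had a median of 0.24, led by Racgap1 (0.53, SE 0.38), whose product helps keep newly loaded CENP-A in place, and the kinase gene Plk1 (0.34, SE 0.39), which licenses loading. All 12 outer kinetochore genes, whose products hold the spindle fibers, were above 0, with a median of 0.36, led by Spc24 (0.91, SE 0.31) and Pmf1 (0.56, SE 0.26).

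The 7 genes of the chromosomal passenger complex and of cohesion protection had a median of 0.41, led by Bub1 (0.64, SE 0.33) and Aurkb (0.47, SE 0.34), both mitotic kinases. Among 10 genes of histone H3 variants and the chaperones of ordinary H3, 8 were above 0, with a median of 0.22, led by the chromatin assembly factor subunits Chaf1b (0.89, SE 0.35) and Chaf1a (0.61, SE 0.20). In the mitosis list 16 of 18 were above 0 with a median of 0.31, led by Prc1 (0.72, SE 0.37) and Pttg1 (0.70, SE 0.24). In the DNA replication list 16 of 17 were above 0 with a median of 0.36, led by E2f1 (0.91, SE 0.31) and Gins1 (0.75, SE 0.45).

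Those values are averages over both populations, and the lists were also read in each. In CD45+ cells 19 of the 84 genes (22.6%) had an unadjusted p under 0.05 and were higher in the deleted line, beside 5.69% of all genes, and in CD45- cells 1.19% beside 3.5%. In CD45+ cells all 18 mitosis genes were above 0 with a median of 0.51, and in CD45- cells 11 of 18 were, with a median of 0.06, beside 55.8% and 0.05 for all genes there. The outer kinetochore list had medians of 0.59 in CD45+ and 0.26 in CD45- cells, and the replication list 0.43 and 0.46. Over the 7 lists the medians ran from 0.11 (H3 variants and chaperones) to 0.59 in CD45+ cells and from 0.06 (mitosis) to 0.46 (replication) in CD45- cells. No single gene of the lists passed the interaction test in limma, and none had an unadjusted p under 0.05 in it.

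**Figure D3:**
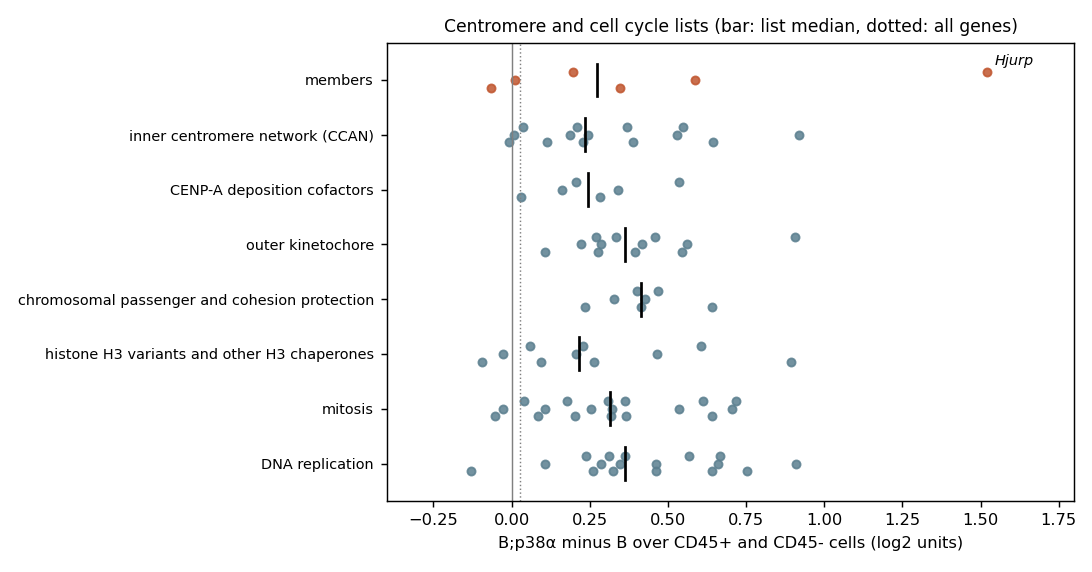
Genotype difference over the 12 sorted samples (B;p38α minus B, log2 units, horizontal axis) of each gene of the 6 members and the 7 lists; black bars are list medians and the dotted line is the median of all genes. The lists sit between -0.13 and 0.92, and Hjurp lies at 1.52. Results from the sorted cells were known when Hjurp was chosen, so its place above the lists is a description.

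Complete tumors did not show that upward lean. There the medians of the 7 lists lay between -0.07 and 0.09, against -0.01 for all genes, and 13 of the 17 replication genes were below 0. Pttg1, which encodes securin, was the exception in the mitosis list at 1.40 (SE 0.36), and E2f1 measured -0.66 (SE 0.24). In complete tumors Hjurp was 1.57 higher beside lists centered near 0. It was chosen for that difference and the list genes were not, so its place above them there follows from the choice. Over both sorted populations Hjurp was 1.52 higher beside lists centered from 0.22 to 0.41, with the wider ranges given above within each population. Results from the sorted cells were known when Hjurp was chosen, so its place there is a description as well.

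The mean of the 18 measured mitosis genes, none of them a member, served as a mitotic level for each sample. In complete tumors and CD45- cells this level differed little between the genotypes against its spread. With the B line first, complete tumors stood at 8.32 ± 0.44 (SD, n = 5) and 8.42 ± 0.75 (SD, n = 3). The CD45- cells stood at 8.25 ± 0.69 and 8.34 ± 0.73 (SD, n = 3 each). In CD45+ cells it was 7.85 ± 0.55 and 8.39 ± 0.47 (SD, n = 3 each). There the deleted line was higher by about the size of the spread, all 18 genes were above 0, and the ranges of the level overlapped. Within 5 of the 6 groups the samples spanned more than 1 log2 unit of mitotic level, and most members varied with it.

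Across the 20 arrays Cenpn followed the mitotic level most closely (Pearson r = 0.94, Spearman rho = 0.93), then Oip5 (0.89 and 0.93) and Cenpa (0.73 and 0.73). Mis18a (0.60 and 0.61) and Cenpc1 (0.58 and 0.54) followed it less. Hjurp had the weakest relation of the 6, with r = 0.41 and rho = 0.51, and r was 0.27 without the 2 arrays farthest from the median mitotic level. After each group's mean was subtracted, r was 0.49 for Hjurp and from 0.67 to 0.95 for the others. These correlations are descriptions, and the points share compartments, arrays and their normalization.

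Once group means were subtracted, Cenpa, Oip5 and Cenpn had the highest correlations among the members, with r from 0.81 to 0.85 in their 3 pairs. Hjurp correlated with the other 5 at 0.26 to 0.51, the lowest with Cenpa, the histone it binds, and the highest with Cenpc1. Pairs without Hjurp also fell in that range, namely Cenpa with Cenpc1 (0.42) and Mis18a with Cenpc1 (0.46). Over the 20 arrays as they stand, r between Hjurp and Cenpa was 0.04.

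**Figure D4:**
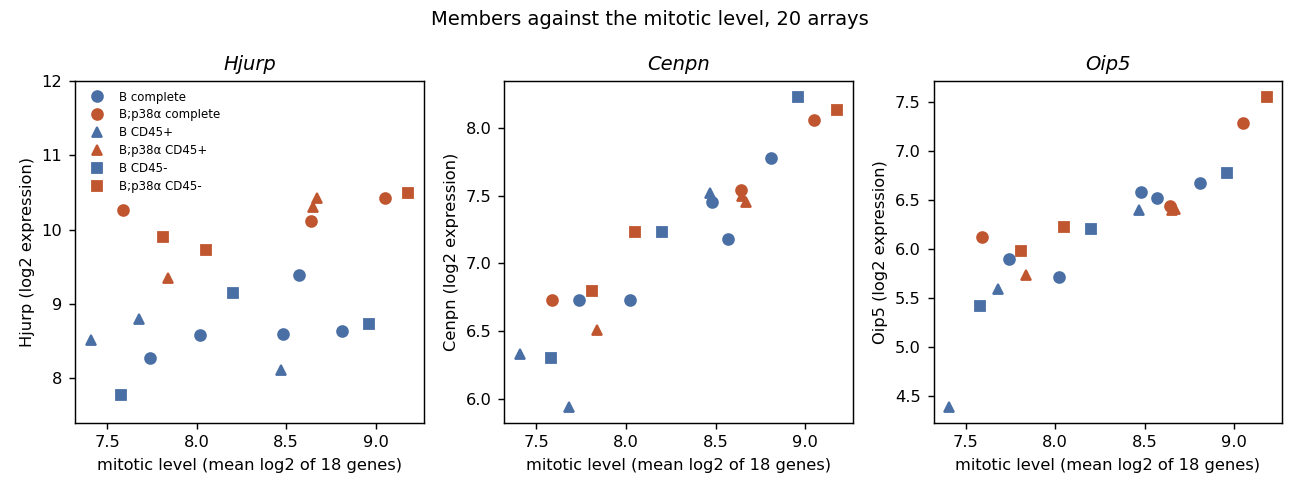
Log2 expression of Hjurp, Cenpn and Oip5 (vertical axes) against the mitotic level (mean log2 of 18 mitosis genes, horizontal axis) in the 20 arrays, with B in blue and B;p38α in orange and the compartments as circles, triangles and squares. Cenpn and Oip5 run along a single line for both colors. Hjurp forms separate blue and orange bands, with a looser relation to the mitotic level (r = 0.49 after group means were subtracted).

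The Hjurp values were also taken relative to the mitotic level of the same sample. Hjurp's level minus the mitotic level was 0.62 ± 0.85 in B and 1.64 ± 0.13 in B;p38α CD45+ cells (SD, n = 3 each), and 0.30 ± 0.60 and 1.69 ± 0.39 in CD45- cells (SD, n = 3 each). Averaged over the sorted populations the difference was 1.21, given as a description since the choice of Hjurp bears on it. With the mitotic level as a covariate in the fit across all genes the Hjurp difference was 1.38 (SE 0.26, adjusted p = 0.0693 in limma) and did not pass. In that fit the other 5 members lay between -0.26 (Cenpa, SE 0.19) and 0.22 (Oip5, SE 0.17), and none passed. In CD45+ cells alone this covariate took Oip5 from 0.72 to 0.01 and Hjurp from 1.55 to 1.43. The Y-linked level as a covariate took the CD45+ values to 2.02 for Oip5 (SE 0.41), 1.62 for Cenpn (SE 0.49) and 0.96 for Cenpa (SE 0.25), against 1.26 for Hjurp (SE 0.51). None of these 4 passed in limma (adjusted p from 0.0776 to 0.207), and Oip5 and Cenpn then lay above Hjurp.

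No member differed between CD45+ and CD45- cells beyond the spread of the arrays. CD45+ minus CD45- cells, averaged over the genotypes, gave -0.04 for Hjurp (SE 0.27, 95% interval -0.65 to 0.56), 0.51 for Cenpa (SE 0.32), 0.30 for Mis18a, -0.54 for Oip5 (SE 0.39), -0.19 for Cenpc1 and -0.44 for Cenpn. None of the 6 passed in limma and none had an unadjusted p under 0.05, in a comparison in which 12.2% of all genes passed. None passed within the B line (4.66% of genes passed) or within the deleted line (4.78%). With the mitotic level as a covariate Cenpa did pass, at 0.66 higher in CD45+ cells (adjusted p = 0.0359 in limma). In that fit 2797 of all 19504 genes passed.

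In the B line the sorted cells were also compared with complete tumors, a comparison in which dissociation and selection go with the compartment and cannot be told apart from it. Hjurp was -0.22 (SE 0.33) in CD45+ cells and -0.14 (SE 0.33) in CD45- cells relative to complete tumors. None of the 6 members passed or had an unadjusted p under 0.05 in either, against 12.2% and 1.5% of all genes called. Of the 84 listed genes 7 passed in CD45+ cells, all of them lower, namely Cenpk, Zwint, Spc24, Top2a, Prc1, Tyms and Ccne2. Of all 19504 genes 1038 passed as lower there. Most genes of every list were below 0, from 6 of 10 H3 variants and chaperones to all 14 of the inner network, while 49.3% of all genes were above 0. Among the 7 called genes the smallest change was that of Zwint, which fell by 0.76 (adjusted p = 0.0092 in limma), and Spc24 fell by 1.39. Top2a, the mitotic topoisomerase, fell by 1.31 (adjusted p = 0.0334 in limma). Hjurp did not pass there, and whether it differs from these 7 genes in that respect was not tested.

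The gene whose values were most like those of Hjurp over the 20 arrays was Dnmt1, the enzyme that copies DNA methylation during replication (Pearson r = 0.88). It measured 8.21, 7.83 and 8.13 in B and 8.90, 9.20 and 8.91 in B;p38α CD45+ cells, and 7.80, 8.07 and 8.34 against 9.54, 9.01 and 8.72 in CD45- cells. Its groups did not overlap in either population, which held for 2.98% of all genes in the higher direction. Over both populations Dnmt1 was 0.98 higher in the deleted line (SE 0.17, adjusted p = 0.0489 in limma), or 1.98-fold. In complete tumors, where it ran from 7.90 to 8.64 in B and from 8.50 to 9.29 in B;p38α, the groups overlapped. Being named for its likeness to Hjurp on these same arrays, Dnmt1 had to share some of its genotype difference. Its adjusted p, just under the threshold, is thus a description, and no alternative setting is given for it.

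Next in likeness came Pttg1 (r = 0.81), Map2k6, which encodes a kinase directly upstream of p38 (0.81), Add2 (0.79) and Wnt16 (0.78), with differences over the sorted cells of 0.70, 0.51, 1.26 and 1.64. None of these 4 passed in limma. After group means were subtracted the list changed entirely, to Car15 (r = 0.96), Smarce1 (0.91), Epb41l2 (0.84), Tesc (0.82) and Rest (0.81), with differences between 0.02 and 0.31 over the sorted cells. No gene stood in both of these lists of 5.

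The closest genes of the other members differed from one member to the next. Cenpa was most like Hmgb2 (r = 0.88) and the proliferation marker gene Mki67 (0.85), and after group means most like the checkpoint gene Mad2l1 (0.95) and the cyclin gene Ccnb2 (0.92). Cenpn was most like Mastl, a mitotic kinase gene (0.95), and H2az2 (0.94), and after group means most like Neil3 (0.96) and Mastl (0.96). Oip5 was most like Mxd3 (0.92) and Tmem121 (0.89), then Ranbp1 (0.97) and Kif22 (0.95). Mis18a was most like the replication gene Gins1 (0.85) and Hspa14 (0.84), then Uqcrfs1 (0.92) and Slbp (0.91). Cenpc1 was most like Ift80 (0.92) and Mphosph9 (0.88), then Lca5 (0.93) and Srsf6 (0.90).

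The genes next to Hjurp on its chromosome had smaller differences. The 12 nearest measured genes, 6 on each side, had differences over the sorted cells between -0.25 (Dnajb3) and 0.54 (Gbx2), the smallest adjusted p in limma being 0.195, and between -0.26 and 0.23 in complete tumors. The gene on one side of it, Mroh2a, measured 0.26 and the gene on the other, Trpm8, 0.06. Their mean levels were 5.14 and 3.91, beside 9.28 for Hjurp. Dnajb3 (3.62), Spp2 (3.52), Gbx2 (5.28), Glrp1 (5.51) and Sag (6.28) were also below the array medians. At such low levels a small difference says little. The neighbors with higher levels were Agap1 (10.09), Atg16l1 (8.63), Usp40 (8.11), Sh3bp4 (7.73) and Dgkd (7.70). Their differences over the sorted cells were 0.49, -0.05, -0.05, 0.06 and 0.23. These neighbors were looked up after the Hjurp values had been seen.

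**Figure D5:**
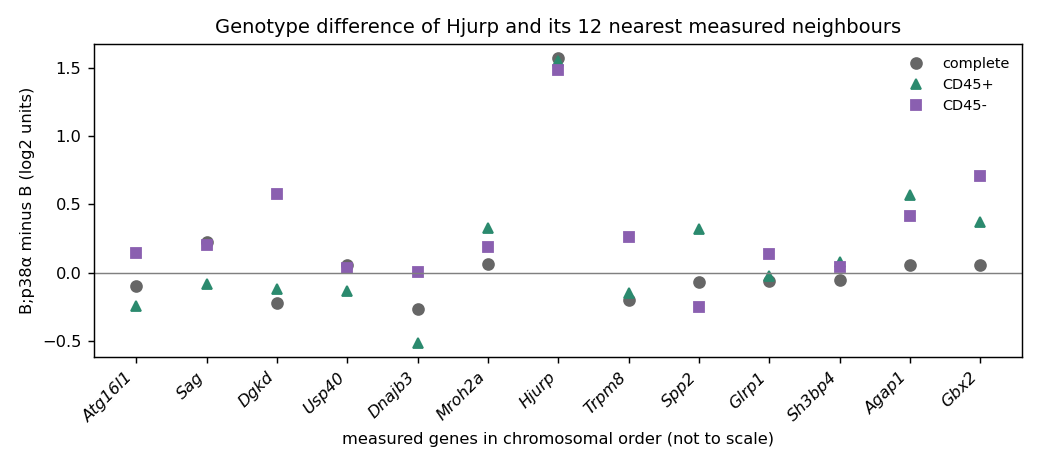
Genotype difference (B;p38α minus B, log2 units, vertical axis) of Hjurp and the 12 nearest measured genes in chromosomal order (horizontal axis, not to scale) in complete tumors, CD45+ and CD45- cells. Hjurp lies near 1.5 in all 3, and the neighbors lie between -0.52 and 0.71.

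Facts of the whole series bear on these values as follows. The table held log2 values from 1.31 to 14.15, and array medians ran from 6.75 to 7.02. Mapk14, which encodes p38α, was slightly lower in the deleted line, at 10.06 and 9.79 in complete tumors, 10.39 and 10.20 in CD45+ and 9.79 and 9.64 in CD45- cells, and passed in none (adjusted p from 0.672 to 0.807 in limma). The place of its probes relative to the deleted part is not known here, and the deletion is aimed at melanocytes alone, so Mapk14 does not check the labels. The 7 melanocyte markers averaged between 6.05 and 6.91 in all 6 groups, no higher in CD45- than in complete samples, so melanocytic identity of the CD45- cells is not shown by their markers. Ptprc, the gene of CD45, ran from 11.74 to 12.14 in B and from 11.20 to 11.95 in B;p38α CD45+ cells, against 9.66 to 9.95 and 6.80 to 8.63 in CD45- cells. In complete tumors the 6 skeletal muscle markers ran from 10.19 to 11.04 in B and from 5.68 to 10.78 in B;p38α, and their part in the Hjurp difference there was not tested.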

How the data were processed

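Arrays were summarized by the authors with RMA to log2 values, the scale of the deposited table. RMA is named in the submitters' processing notes, without a version, and no genome build is stated there. Background correction and normalization were thus complete before deposition. Of 21244 rows, 19570 carried a single gene symbol in the platform annotation and 1674 none. The row with the highest mean was kept for each of the 54 symbols with more than 1 row, which gave 19504 genes. Groups were taken from the sample labels. Differences came from limma (version 3.58.1, under R 4.3.3, functions lmFit and eBayes). P-values were adjusted by Benjamini-Hochberg over all genes at a threshold of 0.05, and only the groups compared entered a fit. The fits were tested on simulated data. Alternatives were a single fit of all 6 groups, a block for the replicate number, a filter on genes below the 30th percentile of level, quantile normalization, array weights, a trended robust variance, the mean of all rows of a gene, the Y-linked or the mitotic level as a covariate, and each array left out. Promoters came from RefSeq, matched by symbol.

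The members and lists were chosen with earlier results of these data known. The text names the members, from each list the genes that passed or else the 2 with the largest difference over the sorted cells, the 5 genes most like Hjurp and the 2 most like each other member, and Mapk14. Genes outside the named rows were not analysed here. Arrays have no depth, and their number limits the precision. Whether replicate numbers shared by groups pair the samples could not be told. Same-numbered samples deviated from their group means with correlations from -0.57 to 0.36 over 27 pairs, of which 9 were above 0.1. Some of these pairs join the 2 lines, and samples of unlike numbers were not set beside them. Between CD45+ and CD45- cells replicates 1, 2 and 3 gave -0.47, -0.57 and 0.36 in B. In B;p38α they gave 0.30, -0.11 and 0.35. Raw scanner data were not used here.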

Additional observations from a re-analysis of the deposited data

How the results depend on the processing

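The Hjurp difference kept its sign in every alternative of the 4 genotype fits, between 1.33 and 1.69 over the sorted populations, 1.26 and 1.89 in CD45+ cells, 1.10 and 1.79 in CD45- cells and 1.40 and 1.75 in complete tumors. Its call did not. Over the sorted populations Hjurp was the 1 member that passed with all 6 groups in a single fit (1.52, adjusted p = 0.0136 in limma), without dim genes (1.52, 0.0404), with array weights (1.35, 0.00707) and with a trended robust variance (1.52, 0.0411). All genes called in those fits numbered 163, 93, 1671 and 86. Array weights also passed 3 members in CD45+ cells, Hjurp (1.52, adjusted p = 0.00757 in limma), Cenpa (0.54, 0.0487) and Cenpn (1.36, 0.0131). In that fit 5303 of all 19504 genes passed. They passed the 1 member Cenpn within the B line (CD45+ against CD45-), where 2652 genes passed. In B CD45+ cells against complete tumors they passed 2 members, Cenpc1 and Cenpn, and 7024 genes in all. With so many genes called, these counts are not read as a result about the members. With the mitotic level as a covariate 1 member, Cenpa, passed between the sorted populations (0.66), in a fit that called 2797 genes. 

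The number of genes called moved widely with the setting, and the causes were not tested. In complete tumors (0) it was 27 with the replicate block and 1 with the mitotic level as a covariate. In CD45+ cells (0) it was 2 with all 6 groups in a single fit, 7 without dim genes, 5303 with array weights, 5 with a trended robust variance, 250 with the Y-linked level and 2 with the mitotic level as a covariate. In CD45- cells (2) it was 0 with all 6 groups in a single fit, 4 with array weights and 1 with the Y-linked level. Over the sorted populations (37) it was 163 with all 6 groups, 10 with the replicate block, 93 without dim genes, 1671 with array weights, 86 with a trended robust variance, 20 with the Y-linked and 59 with the mitotic level. Between CD45+ and CD45- cells (2372) array weights gave 4275, and within the B and the deleted line (908 and 933) they gave 2652 and 1906. Against complete tumors, B CD45+ cells (2389) had 735 with the replicate block and 7024 with array weights. B CD45- cells (293) had 933 with all 6 groups, 64 with the block, 626 without dim genes, 607 with a trended robust variance and 778 with the mitotic level.

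With each array left out in turn, the number of genes called ran from 0 to 49 in complete tumors (49 without B replicate 4), from 0 to 30 in CD45+ cells (30 without B;p38α replicate 3), from 0 to 4 in CD45- cells and from 10 to 55 over the sorted populations. It ran from 1648 to 3145 between the sorted populations, from 271 to 1077 within B, from 606 to 1197 within the deleted line, from 0 to 1 for the interaction, and from 1021 to 3559 and 119 to 336 in B CD45+ and CD45- cells against complete tumors. Between 0 and 1 members were called over the sorted populations. In complete tumors the Cenpa difference ran from -0.59 to 0.26 that of Mis18a from 0.17 to 0.47, that of Oip5 from -0.0024 to 0.58 and that of Cenpn from -0.040 to 0.62.

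Several differences that were not called changed sign, some of them not small to begin with (Cenpn 0.56 in CD45+ cells and 0.35 over the sorted populations, Mis18a 0.39 in CD45- cells). In CD45+ cells Cenpa was -0.14, Mis18a -0.070, Cenpc1 -0.21 and Cenpn -0.11 with the mitotic level as a covariate, Mis18a -0.071 and Cenpc1 -0.013 after quantile normalization, and Mis18a -0.017 with array weights. In CD45- cells array weights gave -0.049 for Mis18a and -0.41 for Cenpn. Over the sorted populations Cenpa was -0.071 after quantile normalization and -0.26 with the mitotic level, Cenpn -0.024 with the mitotic level, and Mis18a -0.036 with array weights. Hjurp between the sorted populations was 0.092 with array weights and 0.038 with the mitotic level, its interaction -0.11 with the Y-linked and -0.13 with the mitotic level, and against complete tumors 0.055 in CD45+ and 0.15 in CD45- B cells with array weights.

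Single arrays also turned uncalled differences, among them those of Oip5 (0.46) and Mis18a (0.39) in CD45- cells. In CD45+ cells the range was -0.12 to 0.14 for Mis18a and -0.069 to 0.24 for Cenpc1, and in CD45- cells -0.72 to 0.15 for Cenpa, -0.050 to 0.65 for Mis18a, -0.027 to 0.78 for Oip5 and -0.34 to 0.62 for Cenpn. Over the sorted populations it was -0.25 to 0.19 for Cenpa, -0.022 to 0.33 for Mis18a and -0.16 to 0.028 for Cenpc1. For Hjurp it was -0.24 to 0.13 between the sorted populations, -0.23 to 0.46 for the interaction and -0.44 to 0.24 for B CD45- cells against complete tumors.

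Whether the replicate numbers of the labels pair the samples is not known, so the block says little about the design. With the replicate block Hjurp over the sorted populations had the same difference and an adjusted p of 0.118 in limma, and no member passed in any comparison in which members were tested. In CD45+ cells the Y-linked level as a covariate moved Oip5 from 0.72 to 2.02 (adjusted p = 0.0776 in limma), Cenpn from 0.56 to 1.62 (0.132) and Cenpa from 0.22 to 0.96 (0.102), none of them called. The 3 to 5 arrays per group limit the precision of every difference.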
